A study of Mus musculus with 4 samples.

Results

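Keratins are the intermediate filament proteins of epithelial cells. Their genes were taken as every row of the deposited table whose symbol is Krt followed by a number and at most 1 letter, which left out the keratin-associated protein genes and gave 51 of 22222 genes. Of these, 28 encode type I (acidic) and 23 type II (basic) keratins. Each filament is built from pairs of a type I and a type II chain, and epithelial layers are told apart by the pair they use: Krt5 with Krt14 in the basal layer, Krt1 with Krt10 in the suprabasal layers of the epidermis, and Krt8 with Krt18 in simple epithelia. Krt6a, Krt6b, Krt16 and Krt17 are low in resting epidermis between the hairs and rise in wounds and in overgrowing epidermis. For this reason keratins are used to read how far skin tumour cells have differentiated.

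The series compared mouse keratoacanthomas, skin tumours that can regress by themselves, raised by 20 weeks of the carcinogen DMBA. Tumours came either from mice kept for 1 week without DMBA (2 libraries, mice C and D) or from mice still on DMBA at week 0 (2 libraries, mice A and B), and all 4 mice had received DMBA. The RNA came from cells sorted as positive for the Tomato reporter and for P-cadherin, labelled as epithelial. The labels used here name no strain, age, or promoter driving Tomato, and say nothing on pooling. Levels are given as scaled CPM, in which the submitters divided read counts by an adjusted library size, and pairs of values follow the order replicate 1, replicate 2. Differences are on the scale of log2(scaled CPM + 0.5), 1 week minus on DMBA.

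The 4 libraries did not hold epithelial RNA to the same degree, and this touches every keratin level. The libraries held 5551937 and 7662159 reads in genes at 1 week, against 9678682 and 5635945 on DMBA. Keratins took 0.525% and 0.354% of the reads at 1 week, against 5.35% and 0.0400% on DMBA. The 12 epithelial marker genes that are no keratins summed to 682 and 681 scaled CPM at 1 week, against 4679 and 249 on DMBA, and 11 of the 12 were highest in on-DMBA replicate 1. The 6 fibroblast markers, which include Col1a1 and Col3a1, summed to 45943 and 48532 at 1 week, against 161 and 40591 on DMBA, and all 6 were lowest in on-DMBA replicate 1. The 6 myeloid markers summed to 4592 and 8789 at 1 week, against 13.1 and 11648 on DMBA, and the 5 endothelial markers to 454 and 932 at 1 week, against 4.87 and 139 on DMBA. Cdh3 encodes P-cadherin, the antigen used for sorting, and had 42.8 and 30.4 at 1 week, against 325 and 3.23 on DMBA. On-DMBA replicate 1 was thus the library with most epithelial and least other RNA, and on-DMBA replicate 2 the one with least epithelial RNA despite the epithelial label. In such bulk RNA, fewer cells of a type and less RNA per cell cannot be told apart.

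**Figure D1:**
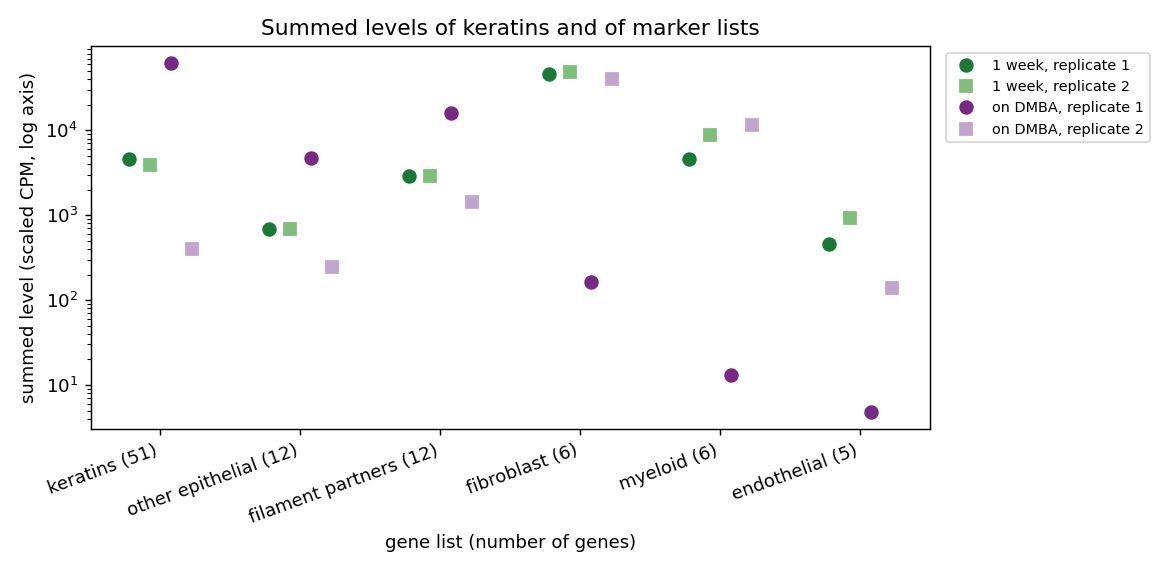
Summed level (scaled CPM, log axis) of the 51 keratins and of 5 marker lists in each library; each point is 1 library. The keratins and both other epithelial lists run from 1 on-DMBA library at the top to the other at the bottom with the 1-week libraries between, while the fibroblast, myeloid and endothelial lists are lowest in on-DMBA replicate 1.

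The sequences shown next bear on how 2 of the main keratins were told apart and on what precedes the basal pair and the suprabasal Krt10. Krt6a and Krt6b are neighbouring type II genes on chromosome 15 with 97.8% identical coding sequence in the GENCODE M21 transcripts. Of the 50-base windows of the Krt6b transcript, 44.5% occur unchanged in that of Krt6a, so reads can be shared between them. The stretch of 120 coding bases, 751 to 870 of each open reading frame, in which they differ most holds 17 differences, printed in capitals.
Krt6b: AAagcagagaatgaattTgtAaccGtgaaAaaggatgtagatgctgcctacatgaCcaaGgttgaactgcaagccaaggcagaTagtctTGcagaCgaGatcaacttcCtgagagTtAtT
Krt6a: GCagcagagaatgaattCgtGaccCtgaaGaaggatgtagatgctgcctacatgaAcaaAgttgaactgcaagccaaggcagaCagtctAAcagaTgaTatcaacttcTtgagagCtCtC
Between the pieces in capitals, unbroken runs of identical bases remain even here. The other abundant keratins are less alike: 12.4% of the windows of Krt16 and 3.66% of those of Krt17 occur in Krt14, and 6.98% of those of Krt5 occur in Krt6a. The values of Krt6a and Krt6b are therefore less certain than those of Krt14, Krt5, Krt10 and Krt1.

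Of the 51 keratin genes, 34 matched RefSeq's promoter table (GRCm38.p6, a later build than the mm9 named in the submitters' processing notes), which holds 35 windows for them. The 250 bases before the start site are shown for Krt14 (chr11:100206031-100206280), Krt5 (chr15:101712906-101713155) and Krt10 (chr11:99389365-99389614), all on the minus strand. A TATA box (TATAAA on either strand) is in capitals.
Krt14: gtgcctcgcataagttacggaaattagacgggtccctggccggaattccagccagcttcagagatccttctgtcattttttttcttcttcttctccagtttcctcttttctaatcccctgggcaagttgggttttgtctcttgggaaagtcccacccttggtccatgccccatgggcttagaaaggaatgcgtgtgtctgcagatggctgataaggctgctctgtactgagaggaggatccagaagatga
Krt5: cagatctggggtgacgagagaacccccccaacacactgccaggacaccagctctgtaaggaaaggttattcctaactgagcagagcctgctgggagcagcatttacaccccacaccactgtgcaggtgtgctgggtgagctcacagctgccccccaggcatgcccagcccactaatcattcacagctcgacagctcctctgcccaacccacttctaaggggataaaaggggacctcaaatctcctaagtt
Krt10: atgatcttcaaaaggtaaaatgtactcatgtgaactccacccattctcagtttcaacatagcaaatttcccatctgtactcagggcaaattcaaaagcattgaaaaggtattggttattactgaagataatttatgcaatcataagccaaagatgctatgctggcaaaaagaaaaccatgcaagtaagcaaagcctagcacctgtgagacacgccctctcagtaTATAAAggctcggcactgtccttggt
These letters were found 26 bases before the start in Krt10 and in neither of the basal pair. They occurred in 16 of the 35 keratin windows, against 12.4% of 32851 windows in all. A GC box (GGGCGG) was in 2 keratin windows, against 32.7% of all, and an AP-1 site (TGANTCA) in 2, against 6.75% of all, with none of either in the 3 windows shown. These are matches of letters and show no binding.

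No keratin passed the test of 1 week against on DMBA, and the family's sum differed more between the on-DMBA mice than between the groups. The 51 genes summed to 4553 and 3868 scaled CPM at 1 week, against 61538 and 405 on DMBA. The 1-week libraries lie close together between the on-DMBA libraries, and the groups overlap. Of the 51 genes, 28 reached 1 scaled CPM in at least 2 libraries and were tested, and in limma 0 were higher and 0 lower at an adjusted p under 0.05. All genes gave the same shares of calls, 0% and 0% of 15419. At an unadjusted p under 0.05 limma also had 0 keratins in either direction, against 2.28% of genes higher and 0.195% lower, and the smallest adjusted p of a keratin was 0.9997. On recovered reads, edgeR called 0 keratins (1 lower and 0 higher at an unadjusted p under 0.05, against 0.272% and 1.49% of genes), and DESeq2 called 1, Krt10, lower (0.0195% of genes lower, 0.104% higher). At an unadjusted p under 0.05 DESeq2 had 5 of the 28 keratins lower and 1 higher, against 178 and 386 of the 15419 genes. The groups did not overlap at 2 tested keratins higher and 2 lower at 1 week, against 14% and 9.14% of all genes tested, and over all 51 at 6 higher and 3 lower, against 15.1% and 7.44% of the table. The median log2 difference of the 28 was 0.02, against -0.02 over all genes tested. With 2 mice per group, a two-sided exact permutation test of a single value cannot give a p under 0.33.

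**Figure D2:**
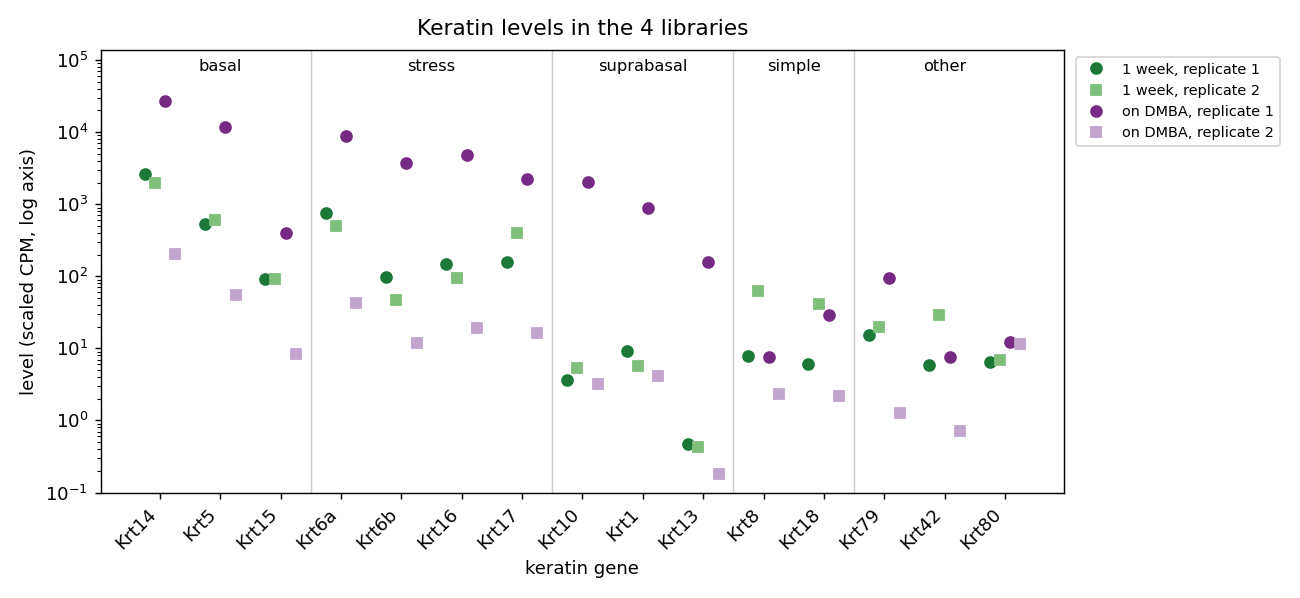
Level (scaled CPM, log axis) of 15 keratins in each library, grouped by role; each point is 1 library. For the basal, stress and suprabasal keratins on-DMBA replicate 1 is at the top and on-DMBA replicate 2 at the bottom, while Krt8 and Krt42 are highest in 1-week replicate 2.

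The basal keratins were the most abundant group in all 4 libraries. Krt14, the type I chain of the basal layer, was at 2644 and 1944 scaled CPM at 1 week, against 26654 and 202 on DMBA. Krt5, its type II partner, was at 539 and 613 at 1 week, against 11731 and 55.3 on DMBA. The replicates at 1 week differed little, and those on DMBA lay on either side of them in both genes. Krt15, a type I keratin of basal cells that also marks stem cells of the hair follicle bulge, was at 90.8 and 92.4 at 1 week, against 403 and 8.26 on DMBA. It followed the same order, with a smaller gap between the on-DMBA libraries. The log2 differences of -0.04 (SE 2.40) for Krt14, -0.49 (SE 2.47) for Krt5 and 0.63 (SE 1.77) for Krt15 were smaller than their errors. Per kilobase of transcript, Krt14 exceeded every other keratin in each library, at 1557 and 1145 scaled CPM per kilobase at 1 week and 15697 and 119 on DMBA.

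The stress keratins followed the basal ones in level. Krt6a was at 767 and 492 at 1 week, against 8707 and 42.4 on DMBA, and its near copy Krt6b was at 97.7 and 47.1 at 1 week, against 3717 and 12.02 on DMBA. Krt16, a type I partner of both, was at 148 and 96.1 at 1 week, against 4797 and 19.4 on DMBA. All 3 were highest in on-DMBA replicate 1 and lowest in on-DMBA replicate 2. Krt17, a type I keratin of hair follicles and wounded skin, was at 157 and 395 at 1 week, against 2265 and 16.5 on DMBA, and was the stress keratin that differed most between the 1-week libraries, with its higher level in replicate 2. Log2 differences were 0.01 (SE 2.46) for Krt6a, -1.66 (SE 2.60) for Krt6b, -1.37 (SE 2.502) for Krt16 and 0.35 (SE 2.28) for Krt17, with none passing.

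Of the 5 suprabasal keratins of the epidermis, Krt10 and Krt1 were abundant, and in 1 library, on-DMBA replicate 1. Krt2, Krt9 and Krt77 had at most 11, 8 and 9 reads in any library. Krt10 was at 3.59 and 5.42 at 1 week, against 2026 and 3.23 on DMBA, which is 23 and 38 reads at 1 week, against 17060 and 18 on DMBA. Krt1, its type II partner, was at 9.22 and 5.71 at 1 week, against 878 and 4.13 on DMBA. Krt13, a type I keratin of mucosal epithelia, was at 0.469 and 0.428 at 1 week, against 159.6 and 0.179 on DMBA, and was not tested because 1 library alone reached 1 scaled CPM. The other 3 libraries held 1 to 3 reads of it. The log2 difference was -4.14 (SE 2.86) for Krt10 and -3.04 (SE 2.40) for Krt1, neither passing in limma, while DESeq2 gave Krt10 a log2 difference of -7.77 (adjusted p = 0.0169). That call rests on on-DMBA replicate 1: without it, the limma difference of Krt10 was 0.40 (SE 0.76). Of the mucosal type II keratins, Krt78 was at 4.22 and 0.856 at 1 week, against 3.92 and 0.897 on DMBA, Krt4 at 1.56 and 0.428 at 1 week, against 2.37 and 1.62 on DMBA, and Krt76 at 1.56 and 0.285 at 1 week, against 1.07 and 0.359 on DMBA. Krt4 was lower in both 1-week libraries, though at its nearest pair by less than the worth of 1 read.

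Of the 6 simple epithelial keratins, Krt8, Krt18 and Krt20 were highest in 1-week replicate 2, and Krt23 alone had the order of the basal keratins. Krt8 was at 7.81 and 62.2 at 1 week, against 7.48 and 2.33 on DMBA, and its partner Krt18 was at 6.10 and 41.8 at 1 week, against 28.6 and 2.15 on DMBA. Both were highest in 1-week replicate 2, and Krt8 was the only tested simple keratin whose 1-week values both exceeded both on-DMBA values. Its nearest pair, 7.81 in 1-week replicate 1 and 7.48 in on-DMBA replicate 1, rests on 50 and 63 reads and was barely apart. Krt20, a type I keratin of gut epithelium and of Merkel cells, was at 0.469 and 2.995 at 1 week, against 0 and 0.897 on DMBA, again highest in 1-week replicate 2 with 21 reads. The log2 difference was 2.26 (SE 1.18) for Krt8 and 0.93 (SE 1.47) for Krt18, neither passing. The 4 measured Merkel cell markers other than keratins (Atoh1, Sox2, Isl1 and Insm1) summed to 18.8 and 3.99 at 1 week, against 39.8 and 15.8 on DMBA, so their sum was lowest where these 3 keratins were highest. Of the 4, Insm1 was instead lowest in on-DMBA replicate 1, at 7.81 and 1.43 at 1 week, against 0.712 and 3.41 on DMBA, and none was at 0 in any library. Their part in the result was not tested. Krt19 was at 2.34 and 0.571 at 1 week, against 0.119 and 1.26 on DMBA, and Krt7 at 1.41 and 0.713 at 1 week, against 1.07 and 1.79 on DMBA. Krt23 was at 0.469 and 0.713 at 1 week, against 4.04 and 0.179 on DMBA. Krt19 and Krt7 are keratins of ductal and glandular epithelia, with at most 15 and 10 reads in a library. Krt23, a type I keratin of gut and glandular epithelia, had 3 and 5 reads at 1 week, against 34 and 1 on DMBA.

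Among the remaining keratins, Krt79, a type II keratin of the upper hair follicle and sebaceous duct in mice, followed the basal keratins, at 15.2 and 20.0 at 1 week, against 94.2 and 1.26 on DMBA. Krt42, a type I gene close to Krt17, was at 5.94 and 29.2 at 1 week, against 7.60 and 0.718 on DMBA, and was highest in 1-week replicate 2, as Krt8 and Krt18 were. Krt80, a type II keratin found in many epithelia, was at 6.56 and 6.85 at 1 week, against 12.3 and 11.7 on DMBA. It was lower in both 1-week libraries, and its on-DMBA replicates were alike, unlike those of the basal keratins. The log2 differences were 0.47 (SE 1.87) for Krt79, 2.14 (SE 1.26) for Krt42 and -0.80 (SE 0.61) for Krt80, with none passing. The keratin-like gene Krt222 was at 1.41 and 1.28 at 1 week, against 0.475 and 1.26 on DMBA.

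Hair keratins were close to the floor of detection in every library. The 23 genes summed to 35.2 and 8.27 scaled CPM at 1 week, against 30.04 and 11.1 on DMBA, and 16 of them were highest in 1-week replicate 1. The median of the 15 hair shaft keratins was 8 and 2 reads at 1 week, against 3 and 1 reads on DMBA. Of the 8 hair keratins tested, Krt75 of the companion layer had the highest single value, at 5.31 and 1.14 at 1 week, against 2.61 and 0.359 on DMBA. The inner root sheath keratins Krt71 and Krt73 were at 2.501 and 0 and at 1.41 and 0.428 at 1 week, against 4.04 and 0.538 and 4.99 and 1.08 on DMBA. The groups overlap for all 3. Krt27 was at 1.56 and 1.14 at 1 week, against 0.950 and 1.44 on DMBA, and Krt28, also of the inner root sheath, at 1.72 and 1.57 at 1 week, against 3.21 and 0.359 on DMBA. Krt35, Krt36 and Krt84, of the hair and nail class, were at 2.34 and 0.571, at 1.25 and 0 and at 3.13 and 0.285 at 1 week, against 2.85 and 0.179, 1.42 and 0.359 and 1.19 and 1.26 on DMBA. None of these 8 had groups that stood apart. The 14 tested keratins outside the 14 whose differences are given above had log2 differences between -1.15 and 0.92. Of the 23 keratins not tested, 6 stayed under 1 scaled CPM in every library. The 17 that reached it in 1 library were Krt2, Krt9, Krt12, Krt13, Krt20, Krt23, Krt24, Krt77 and 9 hair keratins (Krt25, Krt26, Krt31, Krt33b, Krt81, Krt82, Krt83, Krt85 and Krt86), and apart from Krt13 their highest level was 4.27.

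Which keratins passed depended on which on-DMBA mouse stood for its group. Without on-DMBA replicate 1, limma called 11 of the 28 tested keratins higher and 0 lower at 1 week, against 2.35% and 0.999% of all genes. Without on-DMBA replicate 2 it called 10 lower and 1 (Krt8) higher, against 10% and 14.3% of all genes. Krt14, for example, had a log2 difference of 3.48 (SE 0.68, adjusted p = 4.33e-05) without replicate 1 and of -3.56 (SE 1.13, adjusted p = 0.00903) without replicate 2. Krt5, Krt15, Krt6a, Krt6b, Krt16, Krt17 and Krt79 turned sign in the same way, with a limma call on each side. Krt8 was higher both times, at 3.01 and 1.52, and both fits share the 1-week libraries, of which replicate 2 carried the level. Krt8 was at 7.81 and 62.2 scaled CPM in these 1-week libraries, a wide gap. Without 1-week replicate 2 its difference was 0.81 (SE 1.45) with no call. In the fits without an on-DMBA library, limma took each gene's error almost wholly from its variance trend over all genes. The gap between a keratin's own 1-week replicates had little weight, so the calls compare 1 mouse with 2. They do not measure a gene's spread between mice.

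**Figure D3:**
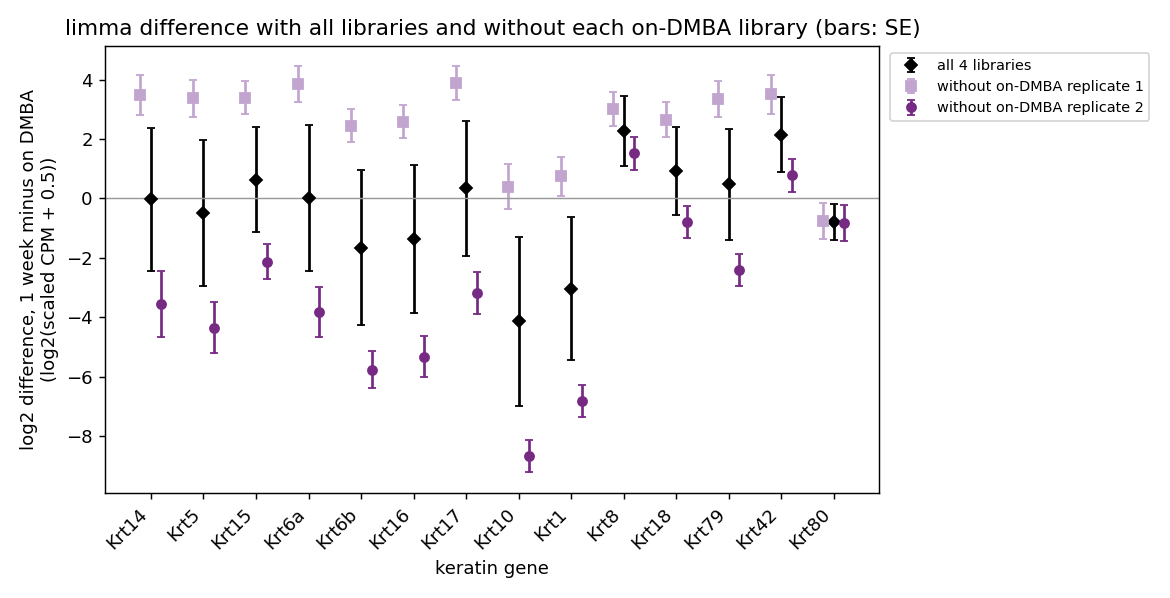
Log2 difference (1 week minus on DMBA, limma, bars are SE) of 14 keratins with all 4 libraries and without either on-DMBA library. Without an on-DMBA library the SE come almost wholly from limma's variance trend over all genes. The basal and stress keratins lie above 0 without on-DMBA replicate 1 and below 0 without on-DMBA replicate 2, whereas Krt8 and Krt42 stay above 0 and Krt80 stays below 0 in all 3 fits.

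The make-up of the keratin reads within a library does not depend on how libraries are scaled. By this measure the basal and suprabasal shares did not overlap between the groups, while the scaled CPM sums of both did. Basal keratins made up 71.9% and 68.5% of the keratin reads at 1 week, against 63.0% and 65.6% on DMBA. Stress keratins made up 25.7% and 26.6% at 1 week, against 31.7% and 22.3% on DMBA. The basal share was higher in both 1-week libraries, by 5.86 percentage points between the means, and the stress share overlapped. Suprabasal keratins made up 0.536% and 0.350% at 1 week (exact 95% binomial intervals 0.455 to 0.626 and 0.284 to 0.428), against 4.99% and 3.15% on DMBA (4.93 to 5.05 and 2.47 to 3.95). Both 1-week libraries were below both on-DMBA libraries, by more than these intervals, which cover counting error only. The 6 suprabasal genes other than Krt10, Krt1 and Krt13 gave 71 of 156 and 14 of 95 suprabasal reads at 1 week, against 79 of 25879 and 29 of 71 on DMBA. Hair keratins made up 0.772% and 0.214% at 1 week, against 0.0488% and 2.75% on DMBA, and the other keratins 0.693% and 1.501% at 1 week, against 0.194% and 4.03% on DMBA. These groups thus took their largest share in on-DMBA replicate 2, the library with fewest keratin reads. Simple keratins made up 0.408% and 2.82% at 1 week, against 0.0672% and 2.13% on DMBA, so their share overlapped. Type I reads numbered 209 and 209 for every 100 type II reads at 1 week, against 144 and 189.6 on DMBA, higher in both 1-week libraries. In on-DMBA replicate 2 the interval of the type I share (63.5 to 67.4%) met those of both 1-week libraries (67.1 to 68.2% in each). That library was thus not told apart from them at this depth.

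**Figure D4:**
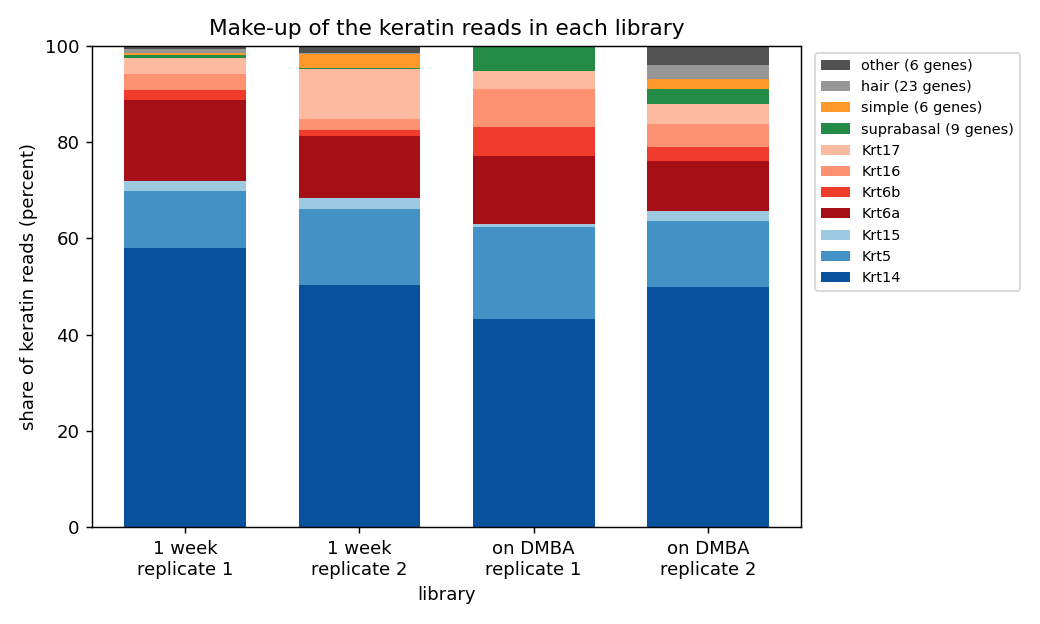
Share of the keratin reads (percent) taken by 7 single keratins and 4 groups in each library; the bars sum to 100 percent. Krt14 is the largest piece in all 4 libraries, and the suprabasal piece (4.99% and 3.15% on DMBA) is hard to see in the 1-week bars (0.536% and 0.350%).

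Of the 51 keratins, 5 had 1-week shares of the keratin reads that were both below the lower on-DMBA share: Krt10, Krt1, Krt16, Krt6b and Krt13. Reads per keratin read were lower without overlap for 0.684% of all genes in the table and higher for 3.37%, and over the genes tested for 0.402% and 0.383%. Among the 2733 genes tested whose level was highest in on-DMBA replicate 1 and lowest in on-DMBA replicate 2, as for 12 keratins, 1.72% were lower per keratin read and 1.02% higher, against 4 and 2 of those 12 keratins. Of the 12 epithelial markers that are no keratins, 4 were also lower per keratin read and 1 higher, so such counts were not particular to keratins. This order of levels was read from the same libraries, so the comparison is a description.

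Krt10 took 0.0790% and 0.140% of the keratin reads at 1 week, against 3.29% and 0.798% on DMBA. The interval of on-DMBA replicate 2, which rests on 18 reads, runs from 0.474 to 1.26 and lies above both 1-week values. In 1-week replicate 1 its 23 reads were close to the 20 of the highest hair shaft keratin there, while in 1-week replicate 2 and on-DMBA replicate 2 the highest hair shaft keratin had 5 and 7 reads. Krt1 took 0.203% and 0.148% at 1 week, against 1.43% and 1.02% on DMBA (0.647 to 1.53 in replicate 2). Both chains of the suprabasal pair thus made up less of the keratin reads at 1 week, although their scaled CPM in on-DMBA replicate 2 was the lowest of all 4 libraries. The keratin sum in on-DMBA replicate 2 was 405 scaled CPM, against 4553 and 3868 at 1 week. Hair keratins took their largest share there, 2.75%, so a share above those of both 1-week libraries was not particular to this pair.

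Krt16 took 3.24% and 2.49% of the keratin reads at 1 week, against 7.80% and 4.79% on DMBA (3.94 to 5.75 in replicate 2). Set against Krt6a, Krt16 had 19.2 and 19.5 reads per 100 at 1 week, against 55.1 and 45.8 on DMBA (36.1 to 57.7 in replicate 2). Krt6b took 2.15% and 1.22% at 1 week, against 6.04% and 2.97% on DMBA, where the interval of replicate 2 (2.31 to 3.76) meets that of 1-week replicate 1 (1.98 to 2.32). Krt6b reads per 100 Krt6a reads were 12.7 and 9.57 at 1 week, against 42.7 and 28.4 on DMBA (21.3 to 37.4 in replicate 2). Both ratios were lower in each of the 1-week libraries than in either on-DMBA library, while the shares of Krt6a and Krt17 overlapped. The intervals cover counting error within a library, with no test between mice, the ratios were picked after their values were seen, and the Krt6b ratio depends on how reads common to both copies were counted, which the sources used here do not state. Krt13 rested on 1 read in on-DMBA replicate 2 and its interval there spans the 1-week values.

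A higher share in both 1-week libraries was taken by 3 keratins, Krt14, Krt79 and Krt33a, the last with at most 5 reads. Krt14 took 58.1% and 50.3% at 1 week, against 43.3% and 49.96% on DMBA, and the interval of on-DMBA replicate 2 (47.9 to 52.0) covers 1-week replicate 2. Krt79 took 0.33298% and 0.516% at 1 week, against 0.153% and 0.310% on DMBA (0.125 to 0.638 in replicate 2), again not told apart at this depth. Krt17 took 3.45% and 10.2% at 1 week, against 3.68% and 4.08% on DMBA, so its excess lay in 1-week replicate 2, the library with the largest shares of Krt8 (0.172% and 1.61% at 1 week, against 0.0122% and 0.576% on DMBA) and Krt42. Krt15 took 1.99% and 2.39% at 1 week, against 0.655% and 2.04% on DMBA, so on-DMBA replicate 1 alone was low. Krt5 reads per Krt14 read, per kilobase of transcript, were 0.158 and 0.244 at 1 week, against 0.340 and 0.211 on DMBA, and overlapped.

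**Figure D5:**
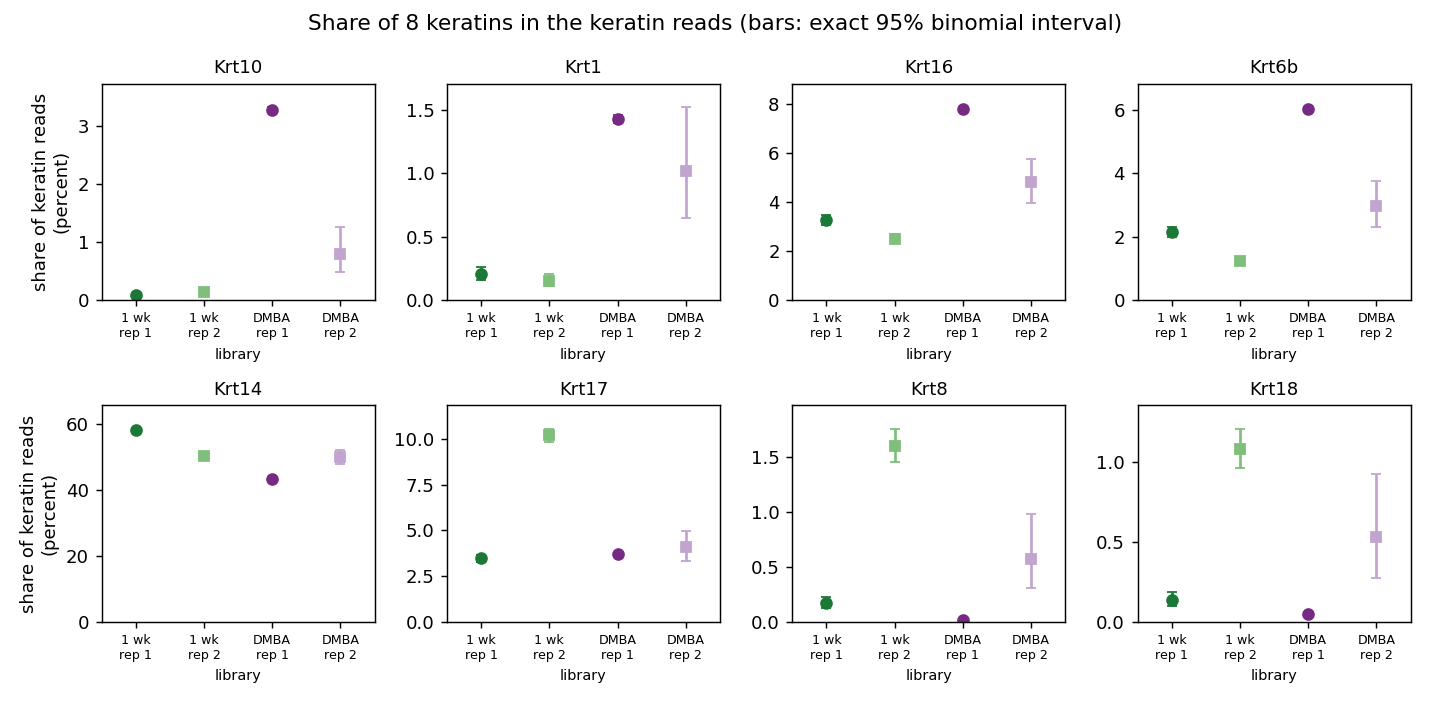
Share of the keratin reads (percent, bars are exact 95% binomial intervals) of 8 keratins in each library, in separate panels with axes from 0. The on-DMBA libraries lie above the 1-week libraries for Krt10, Krt1, Krt16 and Krt6b, and 1-week replicate 2 is highest for Krt17, Krt8 and Krt18.

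Genes of proteins that anchor or bundle keratin filaments were mostly highest in the library richest in epithelial markers. Of 13 listed, 12 were in the table and tested, 0 passed in limma, and the groups stood apart in 1 higher and 0 lower, against 14% and 9.14% of all genes. Their median log2 difference was -0.63, against -0.02 over all genes, and 11 of the 12 were highest in on-DMBA replicate 1, the exception being Pkp2. Pkp2, a desmosomal plakophilin, was at 5.63 and 2.995 at 1 week, against 2.61 and 0.359 on DMBA, and Plec, which links keratins to hemidesmosomes, at 1615 and 1680.4 at 1 week, against 2739 and 870.3 on DMBA. Jup, the desmosomal plakoglobin, was at 96.0 and 72.9 at 1 week, against 1064 and 63.4 on DMBA. The linker Eppk1 was at 21.6 and 13.8 at 1 week, against 159 and 7.90 on DMBA, and Tchh, which crosslinks keratin in the inner root sheath, at 14.7 and 3.14 at 1 week, against 24.1 and 5.74 on DMBA. None of the 5 passed, and on-DMBA replicate 1 was highest in all but Pkp2.

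Of 16 listed transcription regulators of keratin genes, all were tested, 0 passed, and the groups stood apart in 1 higher (Cebpb) and 0 lower, against 14% and 9.14% of all genes. Their median log2 difference was -0.75, and 11 of the 16 were highest in on-DMBA replicate 1. Trp63, the master factor of stratified epithelia and also one of the 12 epithelial markers above, was at 50.9 and 29.7 at 1 week, against 734 and 5.74 on DMBA, the order of Krt14. Cebpb, a factor of early differentiation that myeloid cells also express, was at 442 and 371 at 1 week, against 148 and 336 on DMBA, with its lowest level where myeloid markers were lowest. Klf5 was at 4.84 and 2.14 at 1 week, against 57.6 and 3.05 on DMBA, and Klf4, a factor of barrier formation, at 52.0 and 44.8 at 1 week, against 258 and 37.7 on DMBA. Notch1, a receptor that drives suprabasal commitment, was at 130.5 and 165 at 1 week, against 752 and 129.8 on DMBA. The hair factors Lef1 and Hoxc13 were at 4.53 and 1.14 and at 5.31 and 2.28 at 1 week, against 0.950 and 1.44 and 2.02 and 2.33 on DMBA. For all 3 of Klf5, Klf4 and Notch1 the 1-week values lay near those of on-DMBA replicate 2 and far below replicate 1.

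Intermediate filament genes that are no keratins were highest in on-DMBA replicate 1 in 3 of 15 cases and lowest there in 7. Of the 15 listed, 14 were tested, 0 passed, and the groups stood apart in 3 higher (Vim, Des and Synm) and 0 lower, against 14% and 9.14% of all genes. Vim, the filament gene of mesenchymal cells and leukocytes, was at 1750.4 and 1735 at 1 week, against 18.2 and 1083 on DMBA, and was lowest in on-DMBA replicate 1, where keratins were highest. All 6 fibroblast and all 6 myeloid markers were lowest in that library too, and their part in the result was not tested. The nuclear lamin gene Lmna, expressed in most cell types, was at 964 and 701 at 1 week, against 911 and 449.9 on DMBA, a far narrower spread than that of any basal keratin.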

How the data were processed

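The 4 libraries were made from total RNA of sorted tumour cells with ribosomal RNA removal and a dUTP strand-marking protocol, per the labels' protocols. Tools listed without role or order in the submitters' processing notes are edgeR 3.2.3, HTSeq, TopHat2 2.1 and CASAVA 1.8.2, and the build is mm9; the sources used here state neither annotation nor strand setting. The authors deposited a normalised signal per gene, called CPM, whose columns sum to 867697 to 1149287, so it is CPM against a scaled library size. All values (100%) were whole multiples of 1 step per library (tolerance 0.01 reads), which gave 5551937 to 9678682 reads; 3 reads equal 0.356 to 0.538 scaled CPM. Intervals cover counting error only.

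Genes at 1 scaled CPM in at least 2 libraries were tested with limma 3.58.1 (R 4.3.3, eBayes with trend, log2(scaled CPM + 0.5), two-sided, Benjamini-Hochberg, 0.05). Alternatives were edgeR 4.0.16 and DESeq2 1.42.0 on recovered reads, beside other pseudocounts, filters, scalings, variance models and left-out libraries. The limma, edgeR and DESeq2 fits were first tested on simulated data, and the other settings were not. Apart from planted changes, all simulated libraries had the same mean profile, so the gap between the on-DMBA libraries was not simulated. With all 4 libraries, p-values rest on the spread between these 4 mice, with limma's variances moderated by a trend over all genes. In the limma fits without an on-DMBA library they rest almost wholly on that trend. Shares of keratin reads carry exact (Clopper-Pearson) intervals. Transcript lengths are those of the longest protein-coding GENCODE M21 transcript, missing for 2 keratins. Every keratin was accounted for; those at 1 scaled CPM in at least 2 libraries are given by value, and of each partner list up to 3 members per direction with the smallest p, beside fixed markers. Flg was not analysed here. The members and lists were chosen with earlier results of these data known.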

Additional observations from a re-analysis of the deposited data

How the results depend on the processing

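With all 4 libraries, limma called 0 keratins under every pseudocount, filter, scaling and variance model tried, and edgeR called 0; DESeq2 called 1 lower. DESeq2 called 16 genes higher and 3 lower in all. The same-numbered mice are not paired by the labels, and their deviations from the group means did not go together (r = 0.015); with a replicate block limma called 285 genes higher, 3 lower and 1 keratin lower (Krt10, adjusted p = 0.0023). Leaving out 1 library at a time moved the counts most: 0 to 11 keratins higher, 0 to 10 lower, and 0 to 2212 and 0 to 1549 over all genes. The difference of the summed keratin signal was taken as the log2 ratio of the arithmetic group means, a scale unlike that of the single-gene differences. It was -2.88, and leaving out 1 library at a time it ranged from -3.87 to 3.38. The same ranges were 4.16 to 7.56 percentage points for the basal share, -4.55 to -2.70 for suprabasal, -5.51 to 3.86 for stress, -0.69 to 1.72 for simple, -2.26 to 0.44 for hair and -2.94 to 0.90 for other keratins, and 0.19 to 0.64 for the type I to type II ratio. Of shares that did not overlap, 6 to 37 were lower and 4 to 36 higher, settings chosen after seeing the data; fewer libraries can only add to these counts. With Krt14 and Krt5 left out of the sum, the differences were 3.17 points for the basal share (then Krt15 alone), -9.55 for suprabasal and 9.24 for stress.

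The log2 differences leaving out 1 library ranged from -8.68 to 0.40 for Krt10, -6.82 to 0.75 for Krt1, -4.35 to 3.37 for Krt5, -3.56 to 3.48 for Krt14, -2.13 to 3.40 for Krt15, -3.82 to 3.84 for Krt6a, -5.77 to 2.45 for Krt6b, -5.33 to 2.59 for Krt16, -3.18 to 3.88 for Krt17, -2.40 to 3.35 for Krt79 and -0.80 to 2.65 for Krt18. Krt14 was at 0.0203 after quantile normalization, which moved the median of all genes to -0.15, and at 0.24 after scaling to the epithelial markers. In edgeR and DESeq2, Krt6a was at -2.68 and -2.72, Krt17 at -1.97 and -2.02, Krt79 at -1.35 and -1.39 and Krt15 at -1.07 and -1.11; the cause of these changes of sign was not tested. Low read counts limit the hair keratins and on-DMBA replicate 2, whose keratin reads number 2256 against 518238 in replicate 1. Its total of 5635945 reads was near the 5551937 of 1-week replicate 1, which held 29131 keratin reads.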

Other observations

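The order of the keratins by level per kilobase of transcript differed between the libraries below Krt14. Krt6a was next in 1-week replicate 1 (337 scaled CPM per kilobase) and Krt5 in 1-week replicate 2 (279), against Krt5 in both on-DMBA libraries (5340 and 25.2). Krt17 exceeded Krt16 at 1 week, at 101 and 254 for Krt17 and 94.3 and 61.4 for Krt16, while on DMBA Krt16 exceeded Krt17, at 3065 and 12.4 for Krt16 and 1460.4 and 10.7 for Krt17. The intervals of their shares of keratin reads overlapped in 1-week replicate 1 (3.25 to 3.67 for Krt17, 3.04 to 3.45 for Krt16). They also overlapped in on-DMBA replicate 2 (3.30 to 4.98 and 3.94 to 5.75), so the 2 genes were not told apart in these libraries. In on-DMBA replicate 1, Krt10 (967) ranked above Krt1 (358) and Krt15 (237), and in the 1-week libraries Krt15 (53.4 and 54.4) ranked above both.

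Krt8 and Krt18 reads stood in a ratio of 128 and 149 per 100 at 1 week, against 26.1 and 108 on DMBA, lowest in on-DMBA replicate 1 (19.5 to 34.6, exact 95% interval). Per kilobase of transcript the ratio of Krt8 to Krt18 was 0.941 and 1.09 at 1 week, against 0.192 and 0.795 on DMBA. Krt1 reads per 100 Krt10 reads were 257 and 105 at 1 week, against 43.4 and 128 on DMBA.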
